A study of Drosophila melanogaster with 12 samples.

Results

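The odorant binding protein genes of *Drosophila melanogaster* were followed in wing imaginal discs that had been implanted into adult females, with or without a cut. The family was taken as every gene whose current symbol is Obp followed by a digit. On these arrays 48 such genes had a probe, out of 12058 genes in all, and the RefSeq gene table (Release 6) lists 51. *Obp73a*, *Obp83a* and *Obp83b* were not analysed here, nor was *lush*, which belongs to the same family but does not carry its symbol. *Obp59a* had 2 probes, which were averaged, and every other member had a single probe.

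Odorant binding proteins are small, soluble proteins that cells secrete into the fluid around them, where they bind hydrophobic molecules in an internal pocket. In the sensilla of the antenna and of taste organs they are made by support cells and are thought to carry or buffer odorants and tastants near the receptor neurons. Many members are also known from tissues without a sense of smell, among them fat body, hemolymph, glia and the glands that make seminal fluid. The wing imaginal disc is an epithelial sac of the larva that forms the wing and part of the thorax of the adult.

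Discs came from larvae of the third instar of a single isogenic line of the DrosDel collection, given as w118iso; 2iso; 3iso in the sample labels and with the allele w1118 in the study's methods. Cut discs (C) had lost a sector of the posterior compartment, so that an anterior fragment remained, and intact discs (NC) were left whole. Both were placed in the abdomen of recently eclosed Canton S females, where host cells can attach to them. The time points were 0 and 24 hours for both kinds of disc, with a further one at 72 hours for cut discs. The groups thus differ in the cut and in the time spent in a host, and share strain, larval stage and host.

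Each array set a later RNA against an earlier one, which gave the comparisons C0→C24 and C24→C72 for cut and NC0→NC24 for intact discs. Every comparison had 2 biological replicates with 2 arrays each, in which the dyes were swapped (dye orders A and B), so 12 arrays were used. All values below are on the log2 scale, with the later time point divided by the earlier, so that 1 is a 2-fold rise. Ratios carry no level, so it was not tested which members were transcribed in these discs or whether markers of the wing disc were present, and a changed share of a cell type cannot be told apart from changed RNA per cell. The RNA of cut discs at 24 hours served both C0→C24 and C24→C72, and any peculiarity of it enters them with opposite signs. Across genes the dye-swapped arrays of a replicate correlated at 0.69 to 0.80 in NC0→NC24, at 0.72 to 0.84 in C0→C24 and at 0.20 to 0.44 in C24→C72. The arrays of the last comparison thus resembled each other least, and the part of the dye in this was not tested over all genes.

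A gene was taken to rise or fall when limma gave it an adjusted p (Benjamini-Hochberg over 12058 genes) under 0.05 and it had moved by 1.5-fold or more, which is 0.58 on the log2 scale. By this rule 8 of the 48 members moved in at least 1 comparison and 40 moved in none. The share of all genes that moved in at least 1 comparison, or in C0→C24 and not in NC0→NC24, was not counted. In NC0→NC24 the number of members was 3 of 48 (6.25%), beside 8.99% of all genes, with 2 members up and 1 down. C0→C24 had 7 of 48 (14.6%), beside 11.1% of all genes, with 5 up and 2 down. In C24→C72 there were 3 of 48 (6.25%), beside 2.94% of all genes, with 1 up and 2 down. Upward calls over all genes were 5.14%, 6.12% and 1.36% in this order, and downward calls 3.85%, 4.94% and 1.58%. These counts are small and lie near the background on the first day, and the changes of the family were those of a few members.

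**Figure D1:**
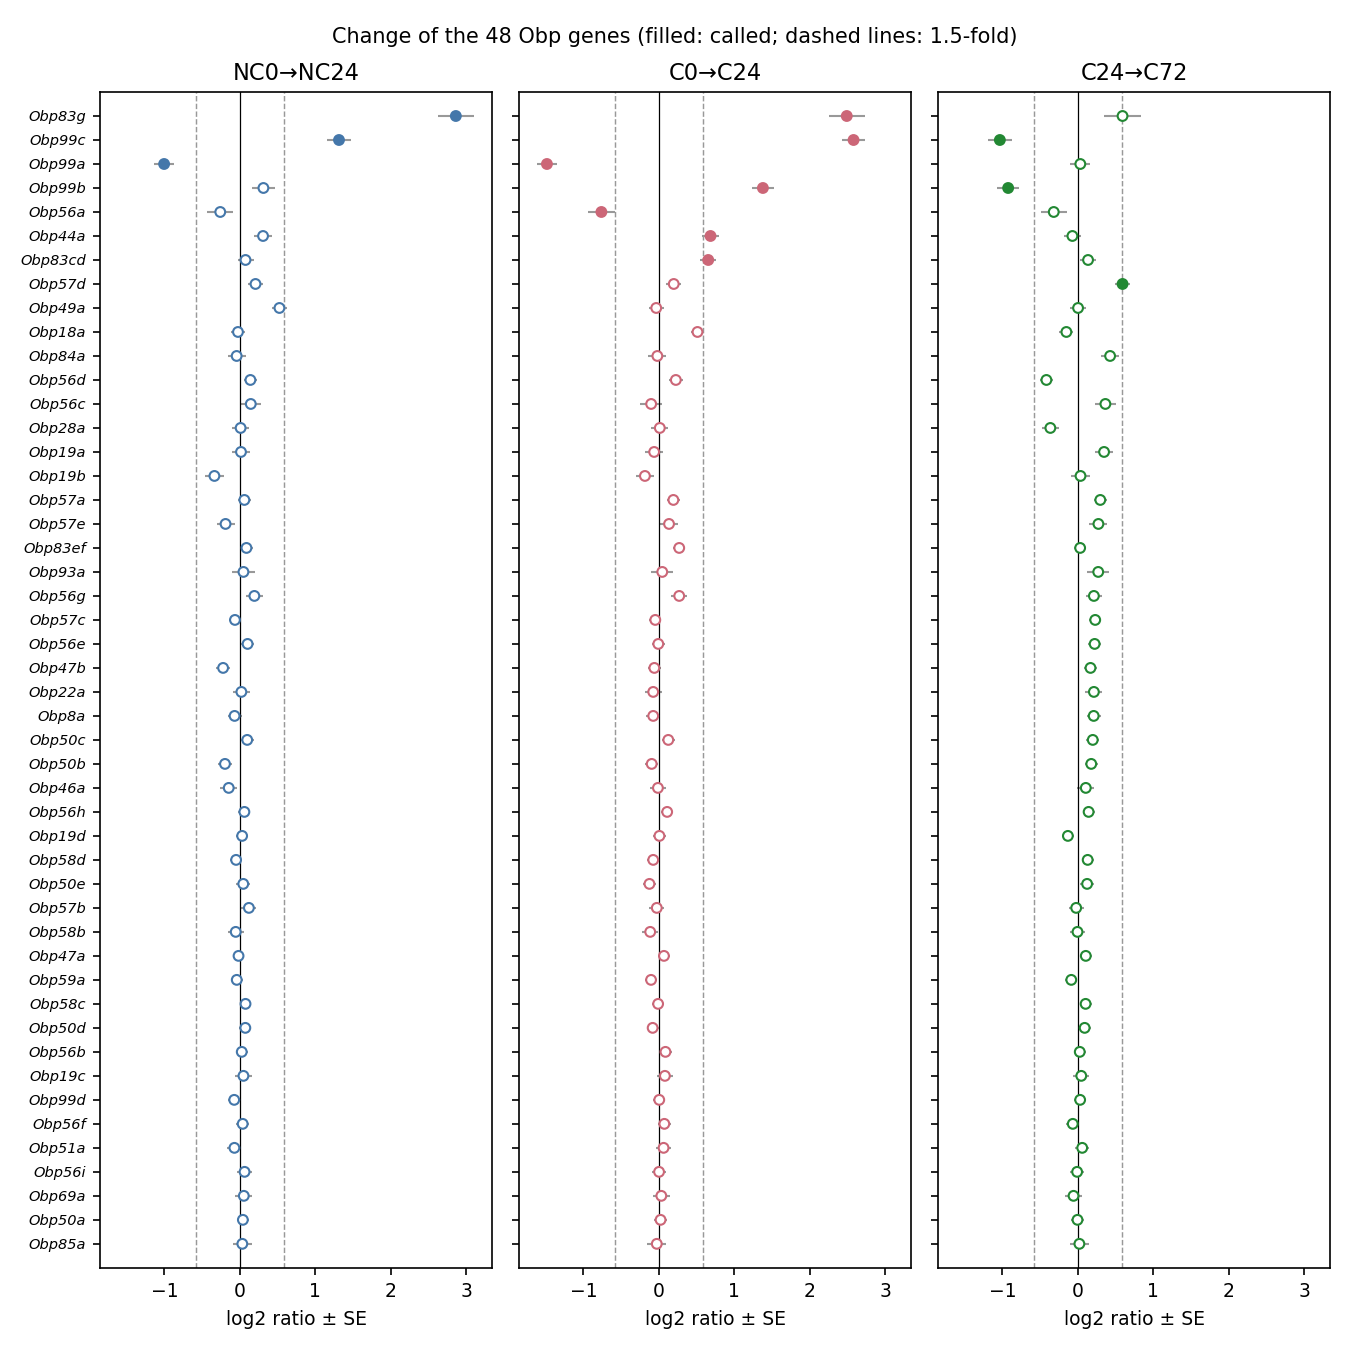
Log2 ratio (later over earlier, ± SE) of the 48 Obp genes in each comparison, one row per gene, ordered by the largest change in any comparison. Filled points were called and the dashed lines mark 1.5-fold; 36 of the rows have values between -0.37 and 0.43 throughout.

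*Obp83g* had the largest rise of the family in intact discs. In NC0→NC24 the 4 arrays read 2.93 and 3.26 in replicate 1 and 2.77 and 2.5 in replicate 2, for dye orders A and B in turn. All lie close together, and their mean of 2.87 ± 0.24 (SE, adjusted p = 0.000114) is a 7.29-fold rise that ranks 10 among 12058 genes. In C0→C24 the arrays read 2.65, 3.58, 2.97 and 0.77. The last of these, replicate 2 in dye order B, lies far below the others, and the mean was 2.49 ± 0.24 (adjusted p = 0.000119). Over all genes that array had the narrowest spread of the 4 (standard deviation 0.36, the others 0.43 to 0.56). Without that array the mean would be 3.04. The values of C24→C72 were 0.79, 0.56, 0.57 and 0.45, all of them positive, with a mean of 0.59 ± 0.24 that did not pass the test (adjusted p = 0.163). *Obp83g* thus rose on the first day in both kinds of disc and had no measured fall afterwards.

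Of the 4 genes named for the Obp99 region 3 moved, and not in the same direction. Their symbols were used for one another in the past (the gene table lists Obp99b as an older name of *Obp99c* and Obp99d as one of *Obp99b*), and the probes were assigned by gene identifier. *Obp99c* rose in intact discs, with 1.62 and 1.56 in replicate 1 and 0.99 and 1.09 in replicate 2, a mean of 1.32 ± 0.16 (adjusted p = 0.000523). It also rose in cut discs, with 2.16 and 3.39 in replicate 1 and 3.09 and 1.69 in replicate 2. All 4 values of cut discs are above all 4 of intact discs, and their mean of 2.58 ± 0.16 (adjusted p = 1.85e-05) is a 5.99-fold rise, the largest of the family in C0→C24.

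*Obp99b*, also known as turn on sex-specificity and described from the adult fat body, was called in C0→C24 and not in NC0→NC24. Its arrays read 0.00, 0.03, 0.74 and 0.48 in NC0→NC24, where replicate 1 stands at 0 and replicate 2 above it, with a mean of 0.31 ± 0.15 (adjusted p = 0.191). In C0→C24 they read 1.2, 1.78, 1.62 and 0.92, a rise of 1.38 ± 0.15 (adjusted p = 0.000215). The arrays of cut discs lie above those of intact discs here as well.

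*Obp99a* fell in both kinds of disc. The arrays of NC0→NC24 read -0.81, -0.91, -1.34 and -0.96, with a mean of -1.01 ± 0.13 (adjusted p = 0.000776). Those of C0→C24 read -1.37, -2.14, -1.68 and -0.75, with a mean of -1.49 ± 0.13 (adjusted p = 7.68e-05), and the 2 ranges overlap through the array of replicate 2 in dye order B. The last gene of this name group, *Obp99d*, was at -0.08 in intact and 0.01 in cut discs and passed no test.

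**Figure D2:**
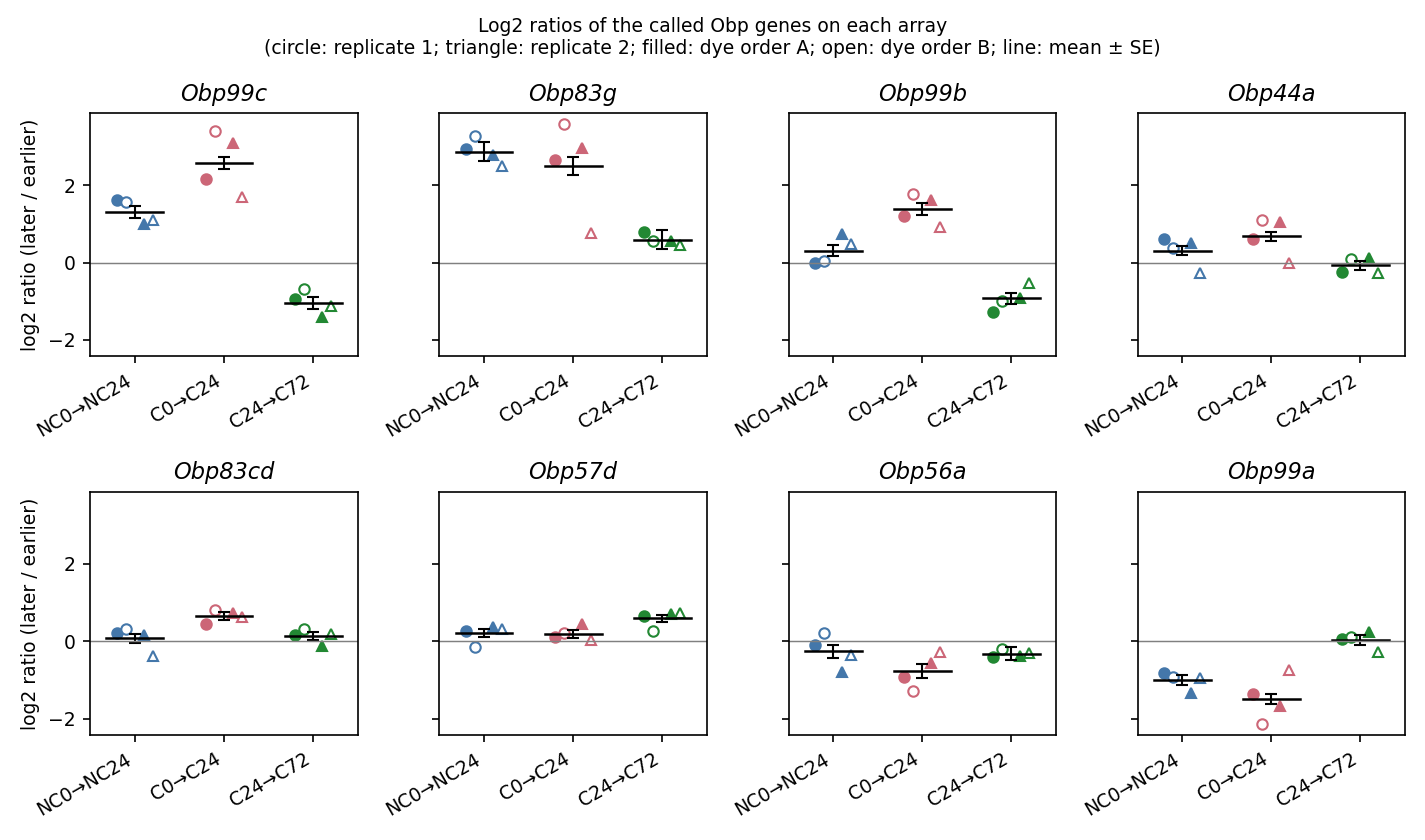
Log2 ratio (later over earlier) on each array for the 8 Obp genes that were called, in the 3 comparisons. Circles are replicate 1, triangles replicate 2, filled symbols dye order A and open symbols dye order B, and the black lines give the mean ± SE of the fit; *Obp83g* and *Obp99c* are high on the first day, and *Obp99b* and *Obp99c* are below 0 in C24→C72.

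A further 3 members were called in C0→C24 and not in NC0→NC24. *Obp44a*, which glia of the brain secrete and which binds fatty acids, read 0.61, 1.1, 1.05 and -0.02 in C0→C24. Of the 4 arrays 3 are clearly positive and 1 is at 0, and the mean was 0.69 ± 0.11 (adjusted p = 0.00224). Its arrays in NC0→NC24 were at 0.60, 0.38, 0.51 and -0.26, with a mean of 0.31 ± 0.11 (adjusted p = 0.0956), and dye order B of replicate 2 was the lowest in both. *Obp83cd*, whose product is made of a pair of odorant binding domains, read 0.45, 0.80, 0.73 and 0.64 in C0→C24 and 0.21, 0.31, 0.17 and -0.39 in NC0→NC24. These 2 sets of arrays do not overlap, and the means were 0.66 ± 0.11 (adjusted p = 0.00190) and 0.08 ± 0.11 (adjusted p = 0.704). The arrays of *Obp47b*, which was not called, do not overlap either, at a difference of only 0.16. Each set of 4 arrays holds 2 replicates, and the share of all genes without overlap was not counted.

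*Obp56a* fell in cut discs. Its arrays read -0.91 and -1.29 in replicate 1 and -0.57 and -0.28 in replicate 2, with a mean of -0.76 ± 0.18 (adjusted p = 0.0111). In intact discs they read -0.10, 0.21, -0.79 and -0.36, which overlaps with the cut discs, with a mean of -0.26 ± 0.18 (adjusted p = 0.368). The calls of *Obp44a* and *Obp56a* rest on replicate 1 of C0→C24: without it the values were 0.52 (adjusted p = 0.0852) and -0.43 (adjusted p = 0.269).

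Whether the first day differed between the 2 kinds of disc was tested in the same fit, by subtracting NC0→NC24 from C0→C24. No array held both kinds. None of the 48 members was called for this difference in limma, beside 0.0746% of all genes (0.0581% higher and 0.0166% lower in cut discs), and 7 of 48 had an unadjusted p under 0.05, beside 716 of 12058. The largest difference in size was that of *Obp99c* (1.27, 95% interval 0.76 to 1.77, adjusted p = 0.116), which ranks 10 of 12058. *Obp99b* followed with 1.07 (0.58 to 1.55, adjusted p = 0.178), then *Obp83cd* with 0.58 (0.24 to 0.92, adjusted p = 0.325) and *Obp18a* with 0.54 (0.24 to 0.83, adjusted p = 0.264), these being the largest with the higher change in cut discs. In the other direction *Obp49a* was first (-0.56, -0.88 to -0.24, adjusted p = 0.309). The differences of *Obp83g* (-0.37, -1.15 to 0.40), *Obp99a* (-0.48, -0.90 to -0.06), *Obp56a* (-0.50, -1.07 to 0.06) and *Obp44a* (0.38, 0.01 to 0.75) had adjusted p-values from 0.754 to 0.997. The array of C0→C24 with the narrowest spread over genes (replicate 2, dye order B) was left out after its values had been seen. Without it *Obp99c* passed the test (1.62, adjusted p = 0.0216) and *Obp83g* turned to 0.18. Over all alternatives the adjusted p of the *Obp99c* difference ran from 0.0216 to 0.817. These values therefore do not separate the members called only in cut discs from those called in both.

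**Figure D3:**
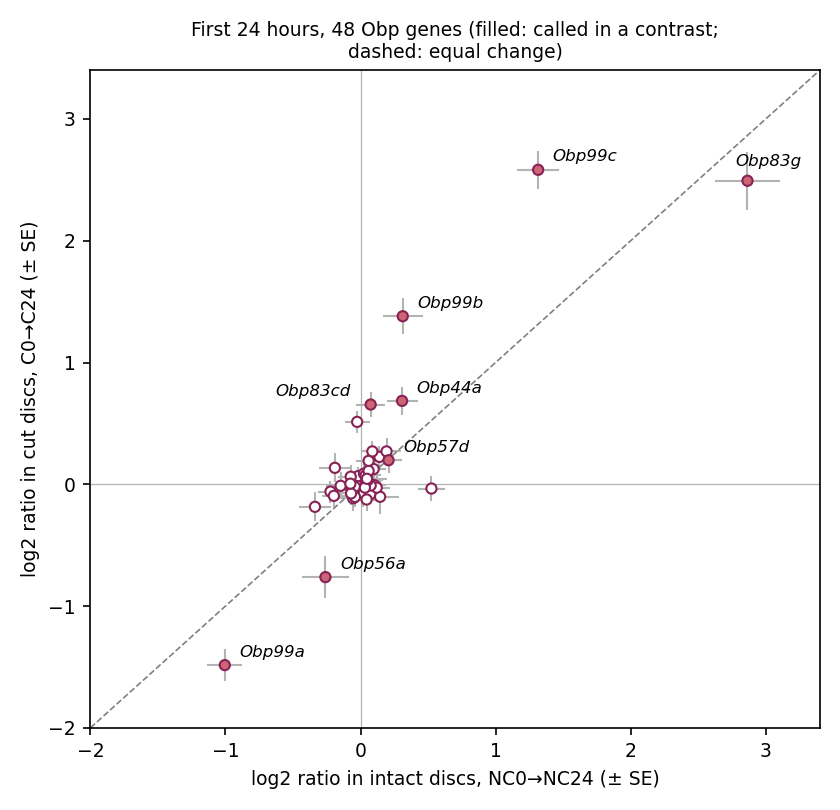
Change of the 48 Obp genes over the first 24 hours in intact discs (horizontal) and in cut discs (vertical), as log2 ratios ± SE. Filled points were called in any comparison and the dashed line marks equal change; *Obp99c* (1.32 and 2.58) and *Obp99b* (0.31 and 1.38) lie above it, and *Obp83g* (2.87 and 2.49) lies near it.

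From 24 to 72 hours *Obp99c* and *Obp99b* fell. *Obp99c* read -0.94 and -0.69 in replicate 1 and -1.40 and -1.11 in replicate 2, a mean of -1.04 ± 0.16 (adjusted p = 0.00683) that is a 2.05-fold fall. *Obp99b* read -1.28, -0.98, -0.92 and -0.52, a mean of -0.93 ± 0.15 (adjusted p = 0.00830). All 4 arrays are negative for each gene, whereas all 4 arrays of C0→C24 were positive. The 24-hour RNA of cut discs is on the opposite side of the ratio in the 2 comparisons, so a rise followed by a fall and a high level of these transcripts in that RNA cannot be told apart. Both calls also depend on the replicates of C24→C72. *Obp99c* without replicate 2 was at -0.82 (adjusted p = 0.0589), and *Obp99b* without replicate 1 was at -0.72 (adjusted p = 0.0767).

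*Obp57d*, which together with *Obp57e* affects the choice of egg-laying site through the response to fatty acids, rose in C24→C72. Its arrays read 0.65, 0.28, 0.71 and 0.73, with a mean of 0.59 ± 0.10 (adjusted p = 0.0101), just inside the 1.5-fold limit. Without replicate 2 the value was 0.47 (adjusted p = 0.0735), and with each array centred on its median it was 0.57, outside the limit. In NC0→NC24 and C0→C24 it was at 0.21 and 0.20, without passing the test. Its neighbours in name *Obp57a*, *Obp57c* and *Obp57e* had 0.30, 0.23 and 0.27 in C24→C72, and *Obp57b* -0.02, with adjusted p-values from 0.0771 to 0.916.

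Over both periods together, 0 to 72 hours in cut discs, 7 of 48 members (14.6%) passed the rule, beside 16.8% of all genes, with 5 up and 2 down, beside 9.43% and 7.40% of all genes. In this sum the 24-hour RNA enters with both signs. *Obp83g* had the largest net rise (3.09 ± 0.34, adjusted p = 0.000339), followed by *Obp99c* (1.55 ± 0.22, adjusted p = 0.00117), *Obp57d* (0.79 ± 0.14, adjusted p = 0.00398), *Obp83cd* (0.79 ± 0.15, adjusted p = 0.00509) and *Obp44a* (0.61 ± 0.16, adjusted p = 0.0236). The net falls were those of *Obp99a* (-1.45 ± 0.18, adjusted p = 0.000657) and *Obp56a* (-1.08 ± 0.25, adjusted p = 0.0123). Without C0→C24 replicate 1 the net values of *Obp44a* and *Obp56a* were 0.44 (adjusted p = 0.180) and -0.75 (adjusted p = 0.112). Without either replicate of C24→C72 that of *Obp44a* no longer passed, at 0.62 (adjusted p = 0.0661) and 0.61 (adjusted p = 0.0671). *Obp99b*, up on the first day and down afterwards, had a net value of 0.46 ± 0.21 (adjusted p = 0.161). By adjusted p alone 9 members passed, beside 25.3% of all genes, the 2 others being *Obp57a* (0.49) and *Obp56g* (0.48).

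Another 4 members passed the adjusted p in 1 comparison with less than a 1.5-fold change. With them, 4 members passed by adjusted p alone in NC0→NC24 (22.3% of all genes), 9 in C0→C24 (26.7%) and 4 in C24→C72 (9.09%). *Obp49a*, which in taste sensilla lets bitter compounds damp the response to sugars, read 0.58, 0.11, 1.04 and 0.37 in NC0→NC24. All 4 arrays are positive, with a mean of 0.53 ± 0.10 (adjusted p = 0.00552). They differed by dye order, with a mean of 0.24 with the later sample in Cy5 and 0.81 with it in Cy3. The arrays of C0→C24 lie at -0.16, 0.08, -0.15 and 0.09, below all arrays of intact discs, but 0.09 is close to the lowest of these (0.11). *Obp18a* read 0.47, 0.79, 0.54 and 0.25 in C0→C24, with a mean of 0.51 ± 0.09 (adjusted p = 0.00318), and was at -0.03 in intact discs. *Obp83ef*, whose product also holds a pair of odorant binding domains, was at 0.27 ± 0.08 (adjusted p = 0.0413) in C0→C24. *Obp56d* was at -0.42 ± 0.09 in C24→C72 (adjusted p = 0.0248), with -0.34, -0.42, -0.68 and -0.23 on the arrays. Each of the 4 lost the adjusted p when a replicate was left out. *Obp49a* was at 0.35 (adjusted p = 0.126) without NC0→NC24 replicate 2, and *Obp18a* at 0.40 (adjusted p = 0.0992) without C0→C24 replicate 1. *Obp83ef* was at 0.20 (adjusted p = 0.369) without C0→C24 replicate 1 and at 0.34 (adjusted p = 0.115) without replicate 2, and with the replicate number as a block its adjusted p was 0.0647. *Obp56d* was at -0.46 (adjusted p = 0.0773) without C24→C72 replicate 1, at -0.38 (adjusted p = 0.113) without replicate 2, and at an adjusted p of 0.0580 without either replicate of C0→C24. The members just outside the fold limit were thus *Obp49a* in intact and *Obp18a* in cut discs, at 1.44-fold and 1.43-fold.

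The remaining 36 members passed no test in any of the 3 comparisons. Their values ran from -0.34 to 0.19 in NC0→NC24, from -0.19 to 0.27 in C0→C24 and from -0.37 to 0.43 in C24→C72. Among all 48 members, 38 (79.2%) lay within 0.2 of 0 in NC0→NC24, beside 64.0% of all genes, and 37 (77.1%) in C0→C24, beside 61.3%. In C24→C72 only 30 (62.5%) did, beside 69.7% of all genes. The median of the 40 members without a call was 0.03 in NC0→NC24, 0.00 in C0→C24 and 0.10 in C24→C72, where 29 of the 40 were above 0, while the median of all genes there was 0.03. All 4 arrays had the same sign for 9 members (18.8%) in NC0→NC24, 14 (29.2%) in C0→C24 and 14 (29.2%) in C24→C72, beside 43.1%, 44.3% and 28.2% of all genes. On the first day a larger share of members than of all genes thus lay near 0, and from 24 to 72 hours a smaller one; neither difference was tested.

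A set of members known from seminal fluid and a set known from the antenna had no call (both sets were put together after the values had been seen). Of them only *Obp56d*, described above, passed the adjusted p in any of the 3 comparisons. The sets do not cover all members known from other organs, since *Obp44a* and *Obp99b*, described above, were called. Of the members that males transfer in seminal fluid, *Obp8a*, *Obp22a*, *Obp51a*, *Obp56f*, *Obp56g* and *Obp56i* ranged from -0.07 to 0.19 in NC0→NC24, from -0.08 to 0.27 in C0→C24 and from -0.07 to 0.21 in C24→C72. Of the members abundant in the antenna, *Obp19a*, *Obp28a*, *Obp56d*, *Obp59a*, *Obp69a* and *Obp84a* ranged from -0.04 to 0.14 and from -0.10 to 0.23 on the first day, in intact and cut discs. In C24→C72 they spread from -0.42 to 0.43, the highest being *Obp84a* (0.43 ± 0.12, adjusted p = 0.0584) and the next lowest after *Obp56d* being *Obp28a* (-0.37 ± 0.11, adjusted p = 0.0822), a gene of olfactory sensilla. The 2 probes of *Obp59a*, which acts in the sensing of humidity, were at -0.01 and -0.08 in intact discs, at -0.03 and -0.18 in cut discs and at -0.12 and -0.06 in C24→C72, all with the same sign.

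A flat mean did not always come from flat arrays. *Obp85a* had the smallest change of all members, 0.03, -0.03 and 0.02 in the 3 comparisons, yet its arrays ranged from -1.08 to 0.72. They followed the dye: with the later sample in Cy5 the mean of 2 arrays was 0.54 in NC0→NC24, 0.26 in C0→C24 and 0.71 in C24→C72, and with the later sample in Cy3 it was -0.47, -0.32 and -0.67. *Obp69a*, with a largest mean change of 0.06, had -0.53 in Cy5 and 0.41 in Cy3 in C24→C72. *Obp50a*, the second flattest member, ranged only from -0.10 to 0.19 over the 12 arrays. *Obp28a* also differed by dye order in C24→C72, at 0.01 in Cy5 and -0.74 in Cy3. *Obp19a* was at 0.01 and 0.69 there, but the 0.69 rests on 1 array, at 1.3 in replicate 2. The arrays of its replicate 1 read 0.12 and 0.08. The calls of C24→C72 had the same sign in both dye orders, with *Obp99c* at -1.17 in Cy5 and -0.90 in Cy3, *Obp99b* at -1.10 and -0.75, and *Obp57d* at 0.68 and 0.51.

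**Figure D4:**
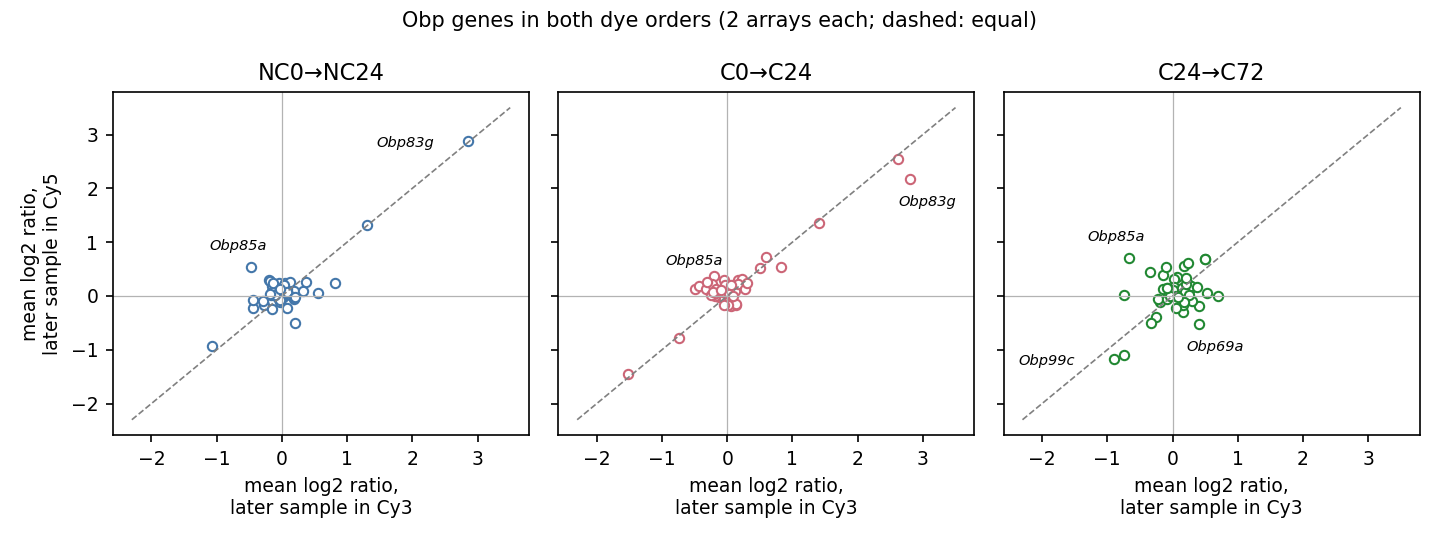
Mean log2 ratio of each of the 48 Obp genes over the 2 arrays with the later sample in Cy3 (horizontal) and the 2 arrays with it in Cy5 (vertical), for each comparison. The dashed line marks equal values. Values of called comparisons have the same sign in the 2 dye orders, though not always the same size (*Obp83g* 2.81 and 2.175 in C0→C24). *Obp85a* has opposite signs (-0.67 and 0.71 in C24→C72).

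By the gene table, 26 of the 48 members sit next to another Obp gene with no other protein-coding gene starting between them, in 7 runs, and 22 have no such neighbour. Of the 8 called members 3 are in a run and 5 are not. Among those 5, *Obp57d* lies close to *Obp57e* and *Obp99b* close to *Obp99d*, each pair parted by the start of another protein-coding gene. *Obp83cd*, *Obp83ef* and *Obp83g* form 1 run, in which the first 2 overlap, so that their signals may not be separate; in C0→C24 they were at 0.66, 0.27 and 2.49, and in NC0→NC24 at 0.08, 0.09 and 2.87. All 3 passed the adjusted p in C0→C24, on the same side and by unequal amounts, and only *Obp83g* did in NC0→NC24. In the run from *Obp56a* to *Obp56f*, only *Obp56a* moved in C0→C24 (-0.76), and the other members were between -0.10 and 0.23. *Obp50b* and *Obp50c*, which share a transcribed region in the table, had -0.20 and 0.10 in NC0→NC24, -0.10 and 0.13 in C0→C24, and 0.18 and 0.20 in C24→C72, with no call.

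Few receptors of the chemical senses were called, beside 8.99% of all genes in NC0→NC24, 11.1% in C0→C24 and 2.94% in C24→C72. Of 59 odorant receptor genes 1 was called in NC0→NC24 and none in C0→C24 or C24→C72, and of 56 gustatory receptor genes none was called in the 3 comparisons. Ionotropic receptor genes had 1 up and 1 down of 51 in NC0→NC24 and in C0→C24, and none in C24→C72. The difference in share between these families and the binding proteins was not tested. In a list of other secreted proteins that bind small hydrophobic molecules, 3 of 26 rose in NC0→NC24, and in C0→C24 5 rose and 1 fell. Among them *Npc2b*, of a family of sterol binding proteins, had 1.50 in NC0→NC24 and 2.74 in C0→C24, *Phk-3*, of the family of insect chemosensory proteins, had 1.87 and 2.11, and *Os-C*, known from olfactory sensilla, fell by 1.17 in cut discs. Of 13 genes of the juvenile hormone binding family 2 rose in each first-day comparison and 1 rose in C24→C72.

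Some markers of other tissues were also called, beside 8.99% of all genes in NC0→NC24, 11.1% in C0→C24 and 2.94% in C24→C72. Of 15 hemocyte markers 9 rose in C0→C24 (median 0.82, range -0.14 to 1.92) and 3 in NC0→NC24 (median 0.13, range -0.53 to 1.11), and C0→C24 exceeded NC0→NC24 by a called difference for *eater* (1.29) and *He* (1.01). Among 8 larval fat body markers 4 rose in C0→C24 (median 0.53, range -0.34 to 1.97) and 1 in NC0→NC24 (median -0.16, range -0.39 to 0.97), with 1 called difference (*fat-spondin*, 0.99). The largest difference in this list was 2.36 and was not called. In C24→C72, where *Obp99b* and *Obp99c* fell, 2 of the 8 fell (median -0.36), among them *Lsp2*, a storage protein gene of the fat body, at -2.20 after a rise of 1.97 in C0→C24. Hemocyte markers had 1 up and 1 down of 15 there (median 0.08). Tracheal markers had 3 of 7 up in each first-day comparison and 2 of 7 down in C24→C72, and 1 of 8 muscle markers rose on the first day in either kind of disc. Of 12 wing disc markers 1 fell in C0→C24 and none was called in NC0→NC24 or C24→C72. The yolk protein genes *Yp1*, *Yp2* and *Yp3*, made by fat body and ovary of adult females, were at 0.18, 0.07 and -0.19 in C0→C24, and of the 9 markers of adult fat body and yolk 2 rose there and 1 fell in C24→C72. These were *Lsp2* and *apolpp* in C0→C24 and *Lsp2* in C24→C72, which are also counted in the larval list. Of 10 markers of neurons and olfactory sensilla 1 fell in C0→C24 (*Os-C*) and none was called in NC0→NC24 or C24→C72, and of 7 glial markers none was called. The part of these tissues in the Obp results was not tested.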

How the data were processed

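The deposited values were log2 ratios between the dyes of 12 spotted oligonucleotide arrays, which the authors read with GenePix and normalized within each set of 4 arrays by the mad method of OLIN. The version of limma that they used is not given in the sources used here. Dye-swapped arrays correlated positively, so the authors had already turned all ratios one way, and the sign was read as later over earlier because it follows the lists of raised and lowered genes that the study gives. Base 2 is that of limma and was not written in the table. Of 16416 features, 13164 had 1 gene symbol, 101 several and 3151 none, and symbols were updated by gene identifier (12533), by accession (120) or kept (511). Probes of a gene were averaged, then dye-swapped arrays, and the 6 replicate means entered 1 linear model with 3 groups in limma 3.58.1 (R 4.3.3), which left 3 residual degrees of freedom before moderation. Calls required an adjusted p under 0.05 and a 1.5-fold change, and intervals are at 95%. The number of arrays limits the precision. The methods state separate RNA extractions for the replicates, and not whether these came from separate sets of discs and hosts, so the p-values measure the spread between these samples.

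By rule, all called members, those with an adjusted p under 0.05 and a smaller change, and the 3 flattest were described singly. Other members named with values (*Obp59a*, which has 2 probes, and those of a name group, organ set, dye contrast or gene run) were chosen after their values were seen. Members and lists were chosen with earlier results of these data known. The fit and the adjusted p were tried on simulated replicate means with changes added in C0→C24. The averaging steps and the fold limit were not part of that trial. Alternatives were other fold limits, limma's treat, array centring and scaling, probes as features, robust moderation, arrays with a dye term, separate fits, replicate blocks, deposited symbols and the omission of each replicate and of 1 array. Positions served only to find neighbouring genes, since the build of the array annotation is not given in the sources used here. No set tests were run, no control spots entered, and no raw intensities were read.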

Additional observations from a re-analysis of the deposited data

Results flagged for a closer look

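A single array stood apart in 1 of the 45 sets of 4 arrays examined, which were those of the called members, of those with an adjusted p under 0.05 and a smaller change, and of the 3 flattest. *Obp49a* read -0.16 in C24→C72 replicate 2, dye order B, while the other 3 arrays lay between 0.05 and 0.07. The 4 arrays hold 2 biological replicates, and chance alone sets an array apart about as often as in 1 of 20 such sets.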

How the results depend on the processing

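Counts were taken under 20 alternatives, 2 of them chosen after the data had been seen, and single members under 19, without the block with crossed numbers. The values of single members kept their direction and their side of the threshold in 546 of 589 cases. The first-day changes of *Obp83g* and *Obp99c* and those of *Obp99a* and *Obp99b* in cut discs kept their call under all 19. In 33 cases a call was lost, in 8 a call was gained, and in 2 the sign turned, both for the cut minus intact value of *Obp83g*, from -0.37 to 0.18 without the array of C0→C24 replicate 2 in dye order B and to 0.25 without replicate 2 of C0→C24. With replicates left out in turn that value ran from -0.995 to 0.25. At a 2-fold limit C0→C24 had 3 members up and 1 down, C24→C72 0 up and 1 down, and the sum over both periods 2 up. Limma's treat at 1.5-fold gave 3 up and 1 down in C0→C24, 0 down in NC0→NC24, 0 up and 0 down in C24→C72, and 2 up and 1 down for the sum. Adjusted p alone, with no fold limit, gave 7 up in C0→C24. With each comparison fitted alone C24→C72 had 0 up and 0 down, while both first-day comparisons had the same counts as in the joint fit (the cause was not tested), and with median-centred arrays it had 0 up. Without the array named above it had 2 up, and 1 member, *Obp99c*, was called higher in cut than in intact discs.

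With each replicate left out in turn, the number of members up ran from 2 to 3 in NC0→NC24, from 4 to 6 in C0→C24, from 0 to 4 in C24→C72 and from 4 to 7 for the sum, and the number down stayed at 1 and ran from 1 to 2, from 1 to 2 and from 1 to 3 in the same order. The 4 up in C24→C72 came without its replicate 1 and the 0 without its replicate 2. Whether replicate numbers paired the samples was not settled. The deviations of same-numbered replicates correlated weakly between comparisons, at -0.12, 0.02 and -0.08. A replicate block left all counts as they were (2 up and 1 down, 5 up and 2 down, 1 up and 2 down, and 0 for the difference), as did a block that enters C24→C72 with the opposite sign and one with the numbers crossed in NC0→NC24. No other alternative moved a count of members by more than 1.5 times. Signals over background are not in the table, so a filter on dim probes and another background correction were not run.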
